A study of Rattus norvegicus with 4 samples.

Results

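Cultured smooth muscle cells from the aorta of Sprague-Dawley rats were exposed to interleukin-1b (IL-1b) for 24 h, and their gene expression was set against that of a culture given the solvent alone. Both cultures had first grown to confluency over 3 days in DMEM/F12 medium with serum and then spent 3 days without serum. IL-1b was used at 2.5 ng/mL, and the control culture received acetic acid at 10 mM and bovine serum albumin (BSA) at 0.1%. Of the 4 arrays of the study, the 2 chosen by these labels make up the comparison, and all 31099 probe sets of the array entered it. The other arrays hold cells of the same origin given PDGF-DD at 30 ng/mL or its own vehicle, BSA at 0.01%, and the latter served here as another culture without a factor. The number of animals behind the cultures is not given in the sources used here. Each condition was 1 culture on 1 array, so no difference below has a replicate check, no test was run and the number of arrays limits the precision.

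IL-1b is an early cytokine of vascular injury and infection. It binds IL-1 receptor type 1, which recruits an accessory protein, the adaptor MyD88 and IRAK kinases, and the signal runs on through TRAF6 and TAK1 to the kinases that free NF-kappaB from its inhibitors and to the MAP kinases that act on AP-1. Among the genes switched on are cytokines, chemokines and C/EBP factors, but also inhibitors that close the pathway again. In aortic smooth muscle the cytokine is known for a turn away from the contractile state, which depends on serum response factor (SRF) and its coactivator myocardin at CArG boxes.

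The probe sets gave 14218 named genes, each read from 1 probe set. A gene counted as measured where its intensity was above a floor of 28.1 on the IL-1b array, its vehicle array or both, which 10679 genes met. Of these, 661 were above it on the IL-1b array alone and 435 on its vehicle array alone, which fixes the direction of their ratios. Genes under the floor on both were left out of the counts and medians of the lists. A list with many such genes therefore rests on its remaining members, some of which entered through the IL-1b array alone. For a gene under the floor on 1 of the arrays compared, the fold was taken against the floor and printed as at least that many fold. Values of 3 arrays are given in the order IL-1b vehicle, IL-1b and PDGF-DD vehicle throughout. Intensities of different probe sets are not compared with each other.

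Several smooth muscle markers were measured on these arrays, and so were 37 of the 38 genes of the contractile list on the array. The markers Myh11, Tagln and Lmod1, of the same list, are not described here. Acta2 (smooth muscle alpha-actin) gave intensities of 9979.9, 2798 and 5504, and Cnn1 (calponin) 5228, 982 and 5134, whereas desmin (Des) was dim at 42.6, under 28.1 and under 28.1. Among endothelial markers 3 of 10 on the array were measured and among leukocyte and macrophage markers 4 of 16. The intensities of the 10 endothelial genes summed to 348, 192 and 297. Pecam1 of the endothelial list and Ptprc, Cd68 and Csf1r of the leukocyte list were under the floor with IL-1b and its vehicle. The measured endothelial genes are not named here, so a few such cells are not excluded. Lysozyme 2 (Lyz2), also in the leukocyte list, was well above the floor with IL-1b and is described with the MHC genes. The beta-actin 3'/5' ratio, a sign of RNA quality, was 1.58, 2.05 and 1.26, and that of GAPDH 1.22, 1.27 and 1.11. The control transcript bioC, which does not come from the cells, read 654, 585 and 264. Other such controls lay closer together, with bioB at 215, 217 and 240, bioD at 3042, 2940 and 3772 and cre at 10583, 10907 and 10775. The part of these values in the differences, also in those from the PDGF-DD vehicle array, was not tested. The reference genes had a median log2 ratio of 0.01, and none of the 13 measured was 2-fold apart.

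IL-1b and its vehicle differed by at least 2-fold in 1236 genes, which is 11.6% of those measured. Of these, 657 (6.15%) were higher with IL-1b and 579 (5.42%) lower, around a median log2 ratio over all measured genes of 0.02. These shares are the background for the counts of each list below. The higher side reached further: 102 genes were at least 8-fold higher and 42 at least 8-fold lower, 59 against 9 passed 16-fold, and 21 against 0 passed 32-fold. Set against the PDGF-DD vehicle array instead, 572 (5.44%) were at least 2-fold higher and 523 (4.97%) lower. The vehicle arrays themselves were at least 2-fold apart in 1087 of 10389 genes (10.5%; 5.79% higher and 4.67% lower with the PDGF-DD vehicle), so a difference from 1 of them need not be seen against the other. Both vehicle arrays were passed by 329 of the higher genes (3.16% of 10399 measured in both comparisons) and 189 of the lower ones (1.82%). Large differences held against both more often than small ones, since 50.1% of genes at least 2-fold higher also passed 2-fold against the PDGF-DD vehicle array, 72.8% at 4-fold, 82.4% at 8-fold and 89.8% at 16-fold. On the lower side the shares were 32.6%, 52.3%, 66.7% and 77.8%. Both comparisons share the IL-1b array and are no replicates of each other. The PDGF-DD vehicle culture stood apart in cell division genes, since 40 of 41 measured G2/M genes were at least 2-fold lower with IL-1b than there, and the part of this in other differences from that array was not tested.

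**Figure D1:**
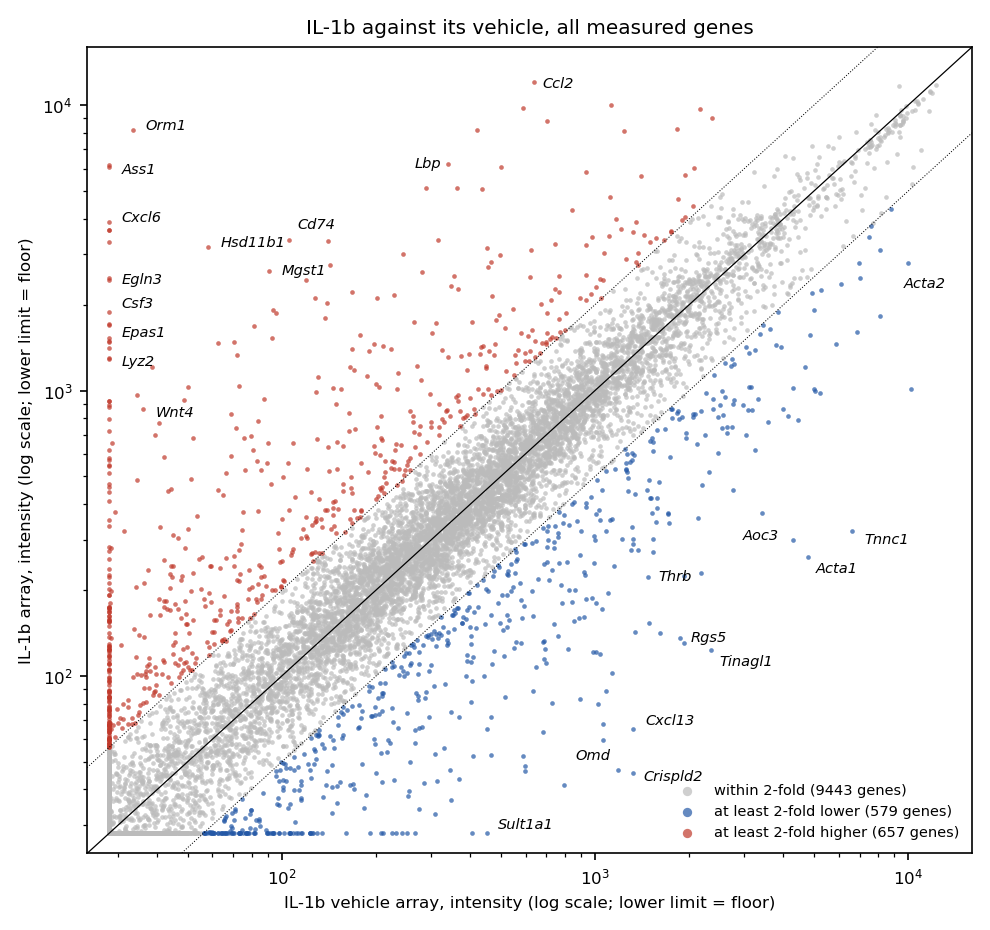
Each point is 1 of the 10679 measured genes, with the intensity on the IL-1b vehicle array on the horizontal and on the IL-1b array on the vertical log axis, values under the floor of 28.1 drawn at the floor, and dotted lines at 2-fold. The 657 genes at least 2-fold higher reach further from the diagonal than the 579 lower ones, and a column of genes at the left edge had no signal above the floor in vehicle.

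The genes furthest above the vehicle were of several kinds, and some are described below with their lists. Wfdc18 and Wfdc21, small secreted proteins with a whey acidic protein domain, were at least 118-fold higher and at least 54.4-fold higher, with intensities of under 28.1, 3318 and 33.5 for the former and under 28.1, 1528 and under 28.1 for the latter. Saa3, an acute phase apolipoprotein, gave under 28.1, 1717 and under 28.1 and was at least 61.1-fold higher. In these 3 genes both vehicle arrays were at or near the floor, so the signal was almost wholly that of the IL-1b array. Egln3, an oxygen-dependent prolyl hydroxylase that marks HIF for destruction, was at least 88.6-fold higher at under 28.1, 2489 and 31.99, and Epas1, the gene of HIF-2alpha and thus of one of its substrates, was at least 60.5-fold higher at under 28.1, 1698 and 68.5. A further probe set of Epas1 gave a log2 ratio of 1.93 where the one shown gave 5.92. Enpp2, which encodes autotaxin and makes lysophosphatidic acid, read 81.6, 1687 and 209 and was 20.7-fold higher. Bmp6, a bone morphogenetic protein, was 20.4-fold higher (119.6, 2446 and 552), and its other probe sets gave log2 ratios from 2.03 to 3.44. Ramp2, which turns the calcitonin-like receptor into an adrenomedullin receptor, was 19.1-fold higher (40.4, 772 and 94.7), and Cd44, a hyaluronan receptor, 21.0-fold higher (70.5, 1480.0 and 488). All 9 of these genes were at least 2-fold above the PDGF-DD vehicle array as well.

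RefSeq promoters of the GRCr8 assembly, 250 bases before to 50 after the start of each gene, were searched for 4 motifs on both strands, the kappaB decamer bound by NF-kappaB, the AP-1 site TGAGTCA, the C/EBP site TTGCNNAA and the CArG box bound by SRF. Matches of different motifs may overlap, and a match is a description of the letters and no shown site. Promoters were found for 8919 of the measured genes. The following 5, of genes that will recur below, are shown because they carry a kappaB decamer, which stands in capitals; in Cxcl2 and Cxcl6 the capitals cover overlapping matches. They lie at chr14:17467206-17467505 on the minus strand (Cxcl2), chr14:17596368-17596667 on the minus strand (Cxcl6), chr4:5894526-5894825 on the minus strand (Il6), chr6:78597023-78597322 on the minus strand (Nfkbia) and chr9:50034133-50034432 on the plus strand (Il1r1), and each is written 5′ to 3′ in the direction of the gene.
Cxcl2: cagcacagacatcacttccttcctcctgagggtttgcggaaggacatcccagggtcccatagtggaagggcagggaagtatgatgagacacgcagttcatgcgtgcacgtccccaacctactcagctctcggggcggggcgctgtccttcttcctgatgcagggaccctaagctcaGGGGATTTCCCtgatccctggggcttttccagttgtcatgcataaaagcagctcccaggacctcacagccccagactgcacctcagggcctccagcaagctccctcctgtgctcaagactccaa
Cxcl6: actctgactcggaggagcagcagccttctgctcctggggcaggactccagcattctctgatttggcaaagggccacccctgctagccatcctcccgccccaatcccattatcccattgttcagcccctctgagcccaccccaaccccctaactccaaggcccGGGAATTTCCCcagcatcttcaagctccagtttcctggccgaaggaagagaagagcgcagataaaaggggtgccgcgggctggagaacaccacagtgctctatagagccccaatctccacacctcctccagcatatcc
Il6: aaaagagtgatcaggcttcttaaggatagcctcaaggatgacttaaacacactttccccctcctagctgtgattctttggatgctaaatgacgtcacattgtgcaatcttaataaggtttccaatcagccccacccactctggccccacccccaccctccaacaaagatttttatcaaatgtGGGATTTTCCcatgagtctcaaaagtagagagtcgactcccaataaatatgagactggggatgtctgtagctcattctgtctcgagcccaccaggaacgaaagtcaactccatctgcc
Nfkbia: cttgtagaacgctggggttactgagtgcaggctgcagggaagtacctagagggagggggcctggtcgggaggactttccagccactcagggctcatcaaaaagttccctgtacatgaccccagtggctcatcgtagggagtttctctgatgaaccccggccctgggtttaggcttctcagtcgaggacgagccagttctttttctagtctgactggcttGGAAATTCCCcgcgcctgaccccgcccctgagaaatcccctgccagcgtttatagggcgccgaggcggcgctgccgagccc
Il1r1: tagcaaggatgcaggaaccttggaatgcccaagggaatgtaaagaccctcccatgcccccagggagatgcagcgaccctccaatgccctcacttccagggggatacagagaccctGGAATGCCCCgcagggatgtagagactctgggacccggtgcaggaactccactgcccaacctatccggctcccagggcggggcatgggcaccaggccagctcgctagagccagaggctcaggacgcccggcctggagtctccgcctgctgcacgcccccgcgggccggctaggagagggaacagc
The first base of the match lies 74, 88, 68, 31 and 135 bases before the start in this order, and the 5 genes were at least 130.2-fold higher, at least 139-fold higher, at least 129.8-fold higher, 6.58-fold higher and 19.3-fold higher with IL-1b.

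The acute phase genes Orm1 (chr5:81788259-81788558 on the plus strand) and Saa3 (chr1:106358381-106358680 on the minus strand) are shown for the C/EBP site, in capitals, which begins 123 and 75 bases before the start.
Orm1: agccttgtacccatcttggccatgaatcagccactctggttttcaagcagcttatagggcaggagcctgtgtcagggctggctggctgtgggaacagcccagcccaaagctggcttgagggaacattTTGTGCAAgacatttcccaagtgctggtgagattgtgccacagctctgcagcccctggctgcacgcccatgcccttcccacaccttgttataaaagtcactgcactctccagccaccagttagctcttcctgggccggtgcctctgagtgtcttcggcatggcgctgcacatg
Saa3: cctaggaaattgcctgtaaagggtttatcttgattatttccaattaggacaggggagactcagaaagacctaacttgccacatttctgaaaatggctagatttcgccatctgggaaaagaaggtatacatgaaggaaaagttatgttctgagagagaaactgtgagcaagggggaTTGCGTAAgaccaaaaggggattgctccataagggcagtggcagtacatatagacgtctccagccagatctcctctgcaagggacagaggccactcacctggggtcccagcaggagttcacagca
They were 244-fold higher and at least 61.1-fold higher with IL-1b. Of the 14 measured acute phase and iron genes with a promoter in the table, 6 (42.9%) held such a site. In the CXC chemokine and receptor list it was 4 of 9 (44.4%), and among all measured genes 8.11%.

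The share of promoters with a kappaB decamer was higher among genes that stood further above the vehicle. It was 4.16% of all 27457 promoters in the table and 5.02% of those of measured genes, then 10% (52 of 518) at 2-fold higher or more, 16.3% at 4-fold, 18.7% at 8-fold and 24.4% (11 of 45) at 16-fold. Genes at least 2-fold lower held it in 5.25% of promoters. Among the NF-kappaB subunits and inhibitors 6 of 11 promoters held the decamer and among the CXC chemokines and receptors 4 of 9, the largest shares of any list. It was in 0 of 14 promoters of the prostanoid synthesis list, 0 of 10 of the TNF list and 0 of 7 of the complement list. Less shifted lists also held it, with 7 of 40 for elastic fibre and proteoglycan genes and 5 of 29 for WNT and Notch genes. The C/EBP site ran the same way, from 8.11% of measured genes (10.5% of all promoters) to 10.4% at 2-fold higher, 15.7% at 4-fold, 24% at 8-fold and 26.7% at 16-fold. The AP-1 site did not, with 3.31% of measured genes (4.53% of all promoters) and 4.05%, 3.49%, 5.33% and 4.44% over the same steps. Genes at least 2-fold higher than both vehicle arrays held the decamer in 9.77% and the C/EBP site in 13.3% of 256 promoters. The steps are nested and the largest hold few genes.

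**Figure D2:**
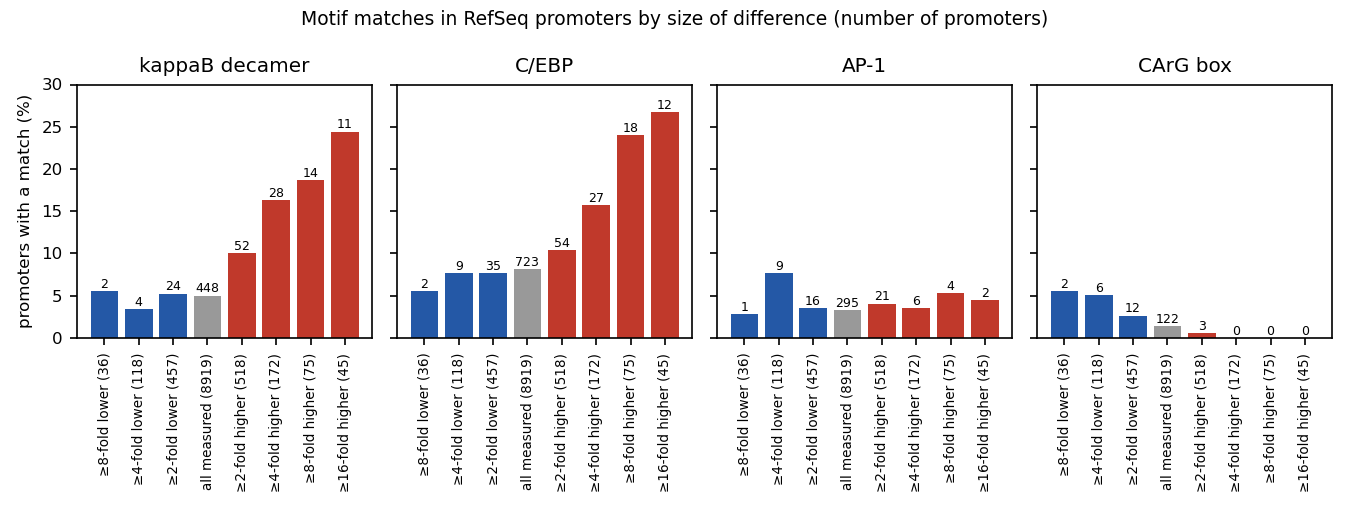
Bars give the percent of RefSeq promoters (250 bases before to 50 after the start) that hold each of 4 motifs, for measured genes in grey, genes higher with IL-1b in red and genes lower in blue, with the number of matching promoters above each bar and the number of promoters in parentheses. The kappaB decamer and C/EBP bars climb to 24.4% and 26.7% at 16-fold higher, while CArG boxes reach 5.56% at 8-fold lower and 0% at 4-fold higher.

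In the IL-1 family 2 receptors, an inhibitory kinase and the receptor antagonist were higher, and the other measured members stayed within 2-fold. Il1r1, the signalling receptor of IL-1b, read 142, 2748 and 599, and Il1rl1, the receptor of IL-33, 28.6, 655 and 178, 19.3-fold higher and 22.9-fold higher than vehicle. Irak3, an inactive IRAK that restrains the pathway, read 167, 2221 and 908 and was 13.3-fold higher. All 3 stood above both vehicle arrays. Il1rn, the receptor antagonist, came out of the background at 64.9 against under 28.1 on both vehicle arrays, and the decoy receptor Il1r2 reached 53.0. In contrast, the accessory protein Il1rap read under 28.1, 46.3 and 40.4, the adaptor Myd88 382, 645 and 593, and the kinases Irak1 and Irak2 had log2 ratios of 0.19 and -0.59. Traf6, Map3k7 (TAK1), Tab1 and Tab2, the next steps of the pathway, lay between -0.07 and 0.03. The ligand Il33 was equal on the IL-1b arrays but lower on the other vehicle (740.4, 729 and 175). In all, 4 of 20 measured members were higher by 2-fold or more and 0 lower, with a median log2 ratio of 0.13 (0.25 when set against the PDGF-DD vehicle array).

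Toll-like receptors share the MyD88 pathway. Of the 7 measured members of their list, 3 were higher by 2-fold or more and 0 lower, with a median of 0.94. Tlr2, the receptor of bacterial lipopeptides, was 20.5-fold higher, at 50.2, 1029 and 876. It was only 1.17-fold higher than the PDGF-DD vehicle array, so its difference from its own vehicle did not carry over. The other 2, Lbp and Ly96 (MD-2, the partner of Toll-like receptor 4, 2.17-fold higher), were higher than both vehicles.

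Within NF-kappaB itself the inhibitors and atypical members differed more than the DNA-binding subunits. Nfkbia (IkBalpha), which holds NF-kappaB in the cytoplasm, read 264, 1734 and 619.9, and Nfkbiz (IkBzeta), a nuclear cofactor for a subset of targets, 937, 5851 and 2346. They were 6.58-fold higher and 6.24-fold higher. Bcl3, another nuclear IkB, was at least 6.83-fold higher, and Nfkbib 2.71-fold higher. Of the subunits, Nfkb2 was 2.32-fold higher, while Nfkb1, Relb and Rela had log2 ratios of 0.90, 0.66 and 0.49. The IkB kinase genes Ikbkb (0.35) and Chuk (-0.08) and the kinase Map3k14 (-0.13) stayed within 2-fold. Map3k8 (TPL-2), the kinase that NF-kappaB1 p105 holds and that feeds ERK, stood out at under 28.1, 1412 and 231. Counted together, 6 of 13 were higher by 2-fold or more and 0 lower, with a median of 0.90 and of 0.72 against the PDGF-DD vehicle array, where 4 were higher.

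Feedback regulators split in the same manner. Zc3h12a (Regnase-1, an RNase) read 95.5, 1876 and 281, Birc3 (cIAP2, a ubiquitin ligase) 71.2, 740.1 and 312 and Ripk2, the kinase downstream of NOD receptors, 281, 2593 and 346. Ripk2 was 9.24-fold higher than its vehicle and 7.50-fold higher than the other one, and Tnfaip2 was 9.33-fold higher (84.0, 784 and 121). The deubiquitinase A20, encoded by Tnfaip3 and a classical NF-kappaB target, was not among them. It read 846, 867 and 264, equal on the IL-1b arrays and 3.29-fold higher than on the PDGF-DD vehicle array. Cyld and Otud7b, 2 further deubiquitinases, had log2 ratios of 0.25 and 0.06, and the RNA-binding Zfp36 0.59. The list held 5 of 20 members at least 2-fold higher and 0 lower, with a median of 0.70.

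Among other transcription factors of inflammation most of the higher genes were not higher than both vehicles. Cebpd read 453, 3171 and 3117 and Cebpb 1119, 4759.7 and 3113, so the former was 7.0-fold higher than its vehicle and at the same level as the PDGF-DD vehicle array. Stat5a (157, 469 and 209) was higher than on either vehicle array, 2.98-fold higher and 2.24-fold higher, and so was Cebpa (2.03-fold higher and 2.40-fold higher). Elf3, an ETS factor, came up from the floor to 174, against 96.5 on the PDGF-DD vehicle array. Stat3, which carries the IL-6 signal, had log2 ratios of 0.87 against its vehicle and -0.14 against the other, and the interferon factors Irf1, Irf3 and Irf9 0.26, 0.05 and 0.10 against the IL-1b vehicle. Of 24 measured factors 9 were at least 2-fold higher than the vehicle and 0 lower, whereas these 2, Stat5a and Cebpa, passed against both vehicle arrays.

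The chemokines of neutrophils showed 2 patterns with respect to the vehicles. Cxcl2 and Cxcl6, ligands of CXCR2, were at or near the floor without IL-1b, at under 28.1, 3657 and under 28.1 and under 28.1, 3901 and 42.9, and Cxcl3 followed at under 28.1, 1483 and 76.1. Cxcl1, a ligand of the same receptor, was already abundant in the PDGF-DD vehicle culture, with 590.2, 9798 and 7358, and so 16.6-fold higher than its vehicle but 1.33-fold higher than the other. Cxcl16, a membrane-bound ligand of CXCR6, gave 364, 5112 and 1461. Cxcl12, which retains progenitors and lymphocytes through CXCR4, did not differ (7844, 8192 and 8798), nor by 2-fold did its scavenger receptor Ackr3 (1657, 2414 and 1556). Cxcl13, the B cell chemokine, was the only member at least 2-fold lower, at 1325, 65.2 and 1218. In sum 5 of 11 measured members were higher and 1 lower, with a median of 0.54.

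CC chemokines, which draw monocytes and T cells, split alike. Ccl5 was under the floor on both vehicle arrays and read 2444 with IL-1b, and Ccl20, the ligand of CCR6, read under 28.1, 1487 and 277. Ccl2 and Ccl7, ligands of CCR2, read 638, 12106 and 9303 and 701, 8788 and 7368, that is 19.0-fold higher and 12.5-fold higher than the vehicle yet 1.3-fold higher and 1.19-fold higher than the PDGF-DD vehicle array. Cx3cl1 (fractalkine), which is tethered to the cell surface, was 12.1-fold higher and 5.09-fold higher, from values of 502, 6058 and 1189. Ccl19, a ligand of CCR7, appeared at 173. The list had 18 members on the array, of which 8 were under the floor with IL-1b and its vehicle and were left out. Of the 10 measured, 8 were at least 2-fold higher than the vehicle, with a median of 3.11, and 5 passed against both.

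In the IL-6 family the cytokine and its shared receptor were both higher. Il6 read under 28.1, 3645 and 445 and Il6st (gp130, the signal-transducing chain) 845, 4285 and 1643, while Il6r, the specific chain, was 0.50 on the log2 scale and dim (69.4, 98.1 and 93.3). Il6st was 5.07-fold higher than its vehicle, and its other probe sets gave log2 ratios from 1.96 to 2.53. Il11 appeared at 127 with both vehicles under the floor, and Clcf1, another cytokine of the family, was 2.56-fold higher. Socs3, the feedback inhibitor of gp130, read under 28.1, 167 and 106, Jak2 66.2, 258 and 188 and the kinase Pim2 74.7, 324 and 51.3. Il11ra1 was lower with a log2 ratio of -0.87, within 2-fold. 8 of 19 members were higher by 2-fold or more and 0 lower, with a median of 0.50, and 5 were higher than both vehicles.

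The inducible colony-stimulating factors were under the floor in both vehicle cultures and well above it with IL-1b. Csf3 (G-CSF) read under 28.1, 1885 and under 28.1 and Csf2 (GM-CSF) under 28.1, 619.9 and under 28.1, while Csf1 (M-CSF), expressed in all 3 cultures, was 2.55-fold higher. Il23a and the IL-13 decoy receptor Il13ra2 appeared at 75.8 and 117, with both vehicles under the floor. The interferon gamma receptor chains Ifngr1 and Ifngr2 were 2.25-fold higher and 2.10-fold higher. Il15, a cytokine that sustains NK and memory T cells, went the other way at 308, 32.8 and 76.5, 9.38-fold lower, and Il17b (2.64-fold lower) and Kitlg (2.29-fold lower) were lower too. Of 22 measured cytokines and receptors in the list, 9 were higher by 2-fold or more and 3 lower, with a median of 0.50.

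Few of the TNF and TNF receptor genes were measured, and most of those stayed within 2-fold. Tnfrsf9 (4-1BB), a costimulatory receptor, was 17.8-fold higher (39.2, 699.7 and 121), and Tnfrsf11b (osteoprotegerin), the decoy of RANKL, 2.17-fold higher (1571, 3412 and 1298). The ligand Tnfsf13 (APRIL) was 3.27-fold higher, and the receptor Tnfrsf25 2.36-fold lower. Tnfrsf1a, the main TNF receptor, had a log2 ratio of 0.91 and Fas one of 0.70. The counts were 3 higher and 1 lower of 12 measured, with a median of 0.76, and 2 were higher than both vehicles.

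Adhesion molecules differed in both directions. Selp (P-selectin), better known from platelets and endothelium, came up from the floor to 797 against 126 on the PDGF-DD vehicle array, although its other probe set gave a log2 ratio of 0.51. Icam1 and Vcam1, which bind leukocyte integrins, read 769, 2213 and 1739 and 498, 2975 and 1998, and both were within 2-fold of the PDGF-DD vehicle. Mcam, a cell-cell adhesion molecule, read 687, 115 and 588 and was 6.0-fold lower, and the junction protein F11r 2.43-fold lower. These lower values held against both vehicles. The list had 5 of 14 at least 2-fold higher and 3 lower, with a median of 0.19.

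Acute phase proteins were among the most shifted lists. 13 of 17 measured members were higher by 2-fold or more and 1 lower, with a median log2 ratio of 2.13, against 9 of 17 and 1.02 with the PDGF-DD vehicle array as base. Lbp, which hands lipopolysaccharide to its receptor, read 338, 6215 and 1055, and Orm1 33.5, 8189 and 618. Lcn2, which sequesters bacterial siderophores, read 1128, 10052 and 9706, so its 8.91-fold higher level was matched by the other vehicle. Iron genes took part: the importer Slc11a2 (DMT1) was 8.81-fold higher (178, 1567 and 432), the ferrireductases Steap3 and Steap4 2.56-fold higher and at least 3.15-fold higher, and ceruloplasmin (Cp), a ferroxidase, at least 9.78-fold higher (under 28.1, 275 and 135). The exporter ferroportin, Slc40a1, was the one member lower, at 594, 176 and 178. That value was also the one of the PDGF-DD vehicle culture.

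Complement genes had 7 of 13 measured members at least 2-fold higher and 1 lower, with a median of 1.07. Serping1, the C1 inhibitor, was at least 16.4-fold higher (under 28.1, 460.4 and 80.1) and the lectin pathway protease Masp1 5.40-fold higher (45.0, 243 and 93.9), while the proteases C1r and C1s were 2.10-fold higher and 2.56-fold higher. Regulators on the cell surface split, as Cd55 was 9.87-fold higher and Cd59b 3.26-fold lower. Cd55 was nevertheless 2.26-fold lower than the PDGF-DD vehicle array, at 28.5, 282 and 638, and 3 members of the list were higher than both vehicles. No member, Cd59b included, was at least 2-fold lower than both.

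MHC class II genes, normally a property of antigen-presenting cells, were detected in these cells. Their master regulator Ciita read under 28.1, 167 and 86.1, the invariant chain Cd74 106, 3379 and 584, and the class II chains RT1-Ba 38.5, 1210.3 and 250.4, RT1-Bb 34.5, 964 and 101 and RT1-Da 93.5, 1919 and 438. In each the PDGF-DD vehicle culture lay between the other arrays. The peptide loaders RT1-DMa and RT1-DMb were 4.0-fold higher and 4.42-fold higher, whereas the promoter-binding factors Rfx5 and Rfxap had log2 ratios of -0.52 and -0.11. Other probe sets of RT1-Ba gave log2 ratios from -1.45 to 0.53, so its direction rests on the probe set chosen, and genes of this polymorphic family can share probe signal. Lyz2, the lysozyme of macrophages and neutrophils, was at least 46.5-fold higher, at under 28.1, 1305 and under 28.1. The other measured leukocyte markers, Aif1, Adgre1 and Fcer1g, reached 38.2, 41.7 and 30.6 with IL-1b and were under the floor in its vehicle, so 1 of 4 was at least 2-fold higher. Any part of other cells in the Lyz2 or class II signal was not tested beyond this. The class II list, which includes Lyz2, had 9 of 12 members at least 2-fold higher and 0 lower, with a median of 3.19 and of 1.32 against the PDGF-DD vehicle.

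Class I presentation and the interferon response differed far less. The immunoproteasome genes Psmb9, Psme2 and Psmb8 were 2.45-fold higher, 2.31-fold higher and 2.06-fold higher, B2m was equal (8497, 8266 and 8259.7), and 5 of 17 members of the class I list were at least 2-fold higher with a median of 0.64; 0 of them also passed against the other vehicle. Among interferon-stimulated genes 1 of 21 was higher by 2-fold or more and 0 lower, with a median of 0.09. That one was Ifitm1 (52.7, 111 and 111). Isg15, Ifit2 and Oasl, which respond to type I interferon, had log2 ratios of 0.26, 0.09 and 0.03, and Gbp2, which responds to interferon gamma, 0.96.

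Genes of each step from membrane lipid to prostaglandin E2 were higher. The phospholipases Pla2g2a, Pla2g4a and Pla2g5 were at least 219-fold higher, 2.65-fold higher and 3.41-fold higher, with Pla2g4a, the cytosolic enzyme that serves the cyclooxygenases, at 359, 949.6 and 419.9. Ptgs2 (cyclooxygenase 2) read 364, 2275 and 692 and Ptges, the inducible PGE synthase, under 28.1, 335 and under 28.1. The constitutive Ptgs1 was dim and equal (28.3, 28.5 and 44.1), and the PGI2 synthase Ptgis read 1431, 1573 and 2982, lower than in the other vehicle. All 6 of 16 members that were at least 2-fold higher than the vehicle were so against both arrays, 0 were lower, and the median was 0.27. Of the receptors only 5 were measured; the thromboxane receptor Tbxa2r, which contracts smooth muscle, was at least 4.60-fold lower (129, under 28.1 and 89.5), and 0 were higher.

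Arginine enzymes included one of the largest differences. Ass1, which regenerates arginine from citrulline, read under 28.1, 6059 and 44.3, while Asl, the next enzyme, had a log2 ratio of 0.27. The inducible nitric oxide synthase Nos2 was barely above the floor (under 28.1, 33.2 and under 28.1). Gch1, which supplies the cofactor of the synthase, was at least 6.16-fold higher (under 28.1, 173 and 111), Arg1 8.57-fold higher and the polyamine catabolic enzyme Sat1 3.03-fold higher. The polyamine enzymes Odc1 and Amd1 had log2 ratios of -0.24 and 0.11. Together 4 of 21 were higher by 2-fold or more and 0 lower, with a median of 0.11.

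Besides Egln3 and Epas1, hypoxia and glucose genes showed no shared shift. Hif1a was 2.06-fold higher (1747, 3593 and 2858) and adrenomedullin, Adm, 4.19-fold higher (30.6, 128.2 and 38.6), yet the carbonic anhydrase Car9, a standard hypoxia marker, was 12.9-fold lower (599, 46.6 and 151). The glycolytic genes Ldha, Tpi1 and Pfkl had log2 ratios of 0.08, 0.06 and 0.07, and the glucose transporter Slc2a1 0.68. Egln1, the main housekeeping prolyl hydroxylase, had -0.16. The list counted 4 of 30 higher and 2 lower, with a median of 0.25.

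Genes of oxidative stress held 12 of 45 members at least 2-fold higher and 3 lower, with a median of 0.34, but 3 of them were higher than both vehicles. Those 3 were Mgst1, a microsomal glutathione transferase (90.8, 2629.6 and 108), Xdh (xanthine dehydrogenase, 243, 3003 and 876) and Slc7a11, the cystine importer (31.3, 322 and 44.0). Sod2, the mitochondrial superoxide dismutase and a known NF-kappaB target, read 1236, 8139 and 7543 and thus matched the PDGF-DD vehicle. The classical NRF2 targets Gclc and Gclm had log2 ratios of -0.54 and -0.29, while Nqo1 was 4.25-fold higher. Gsta4, a glutathione transferase, was 4.24-fold lower, but no member of the list was 2-fold lower than the PDGF-DD vehicle.

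Solute transporters held 10 of 35 higher and 4 lower (median 0.19). Slc29a1, a nucleoside transporter, was 8.32-fold higher (168, 1396 and 553), and the lactate and pyruvate carrier Slc16a1 5.52-fold higher (312, 1719.5 and 789.6). The insulin-regulated glucose transporter Slc2a4 was at least 4.38-fold lower (123, under 28.1 and under 28.1) and the water channel Aqp1 3.87-fold lower (386, 99.8 and 155).

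Steroid and nuclear receptor genes held 5 of 34 higher and 5 lower (median near 0). Hsd11b1, which regenerates active glucocorticoid inside cells, read 58.1, 3177 and 569.7, while the receptor Nr3c1 had a log2 ratio of -0.51 and its targets Fkbp5 and Tsc22d3 0.33 and 0.84. Thrb, a thyroid hormone receptor, was 6.64-fold lower (1477, 222 and 375). Sult1a1, a phenol sulfotransferase, and Akr1c14, a hydroxysteroid dehydrogenase, were at least 16.1-fold lower and at least 8.60-fold lower, but Akr1c14 was under the floor in the other vehicle too.

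In lipid handling, 5 of 27 uptake and efflux genes were higher and 3 lower (median 0.17), and 1 of 30 synthesis genes higher and 2 lower (median 0.13). The synthesis counts were near the shares over all measured genes, 6.15% higher and 5.42% lower. The fatty acid binding protein Fabp5 was 10.7-fold higher (315, 3381 and 562), Fabp4 came up from the floor to 149, and Angptl4, an inhibitor of lipoprotein lipase, was 6.91-fold higher (171, 1178 and 287). Vldlr, the receptor of very low density lipoprotein, was 4.60-fold lower (3574, 778 and 3074), and the fatty acid desaturases Fads1 and Fads2 4.64-fold lower and at least 3.32-fold lower. With the PDGF-DD vehicle as the denominator, the synthesis list had a median of -0.76, with 10 of 30 lower.

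**Figure D3:**
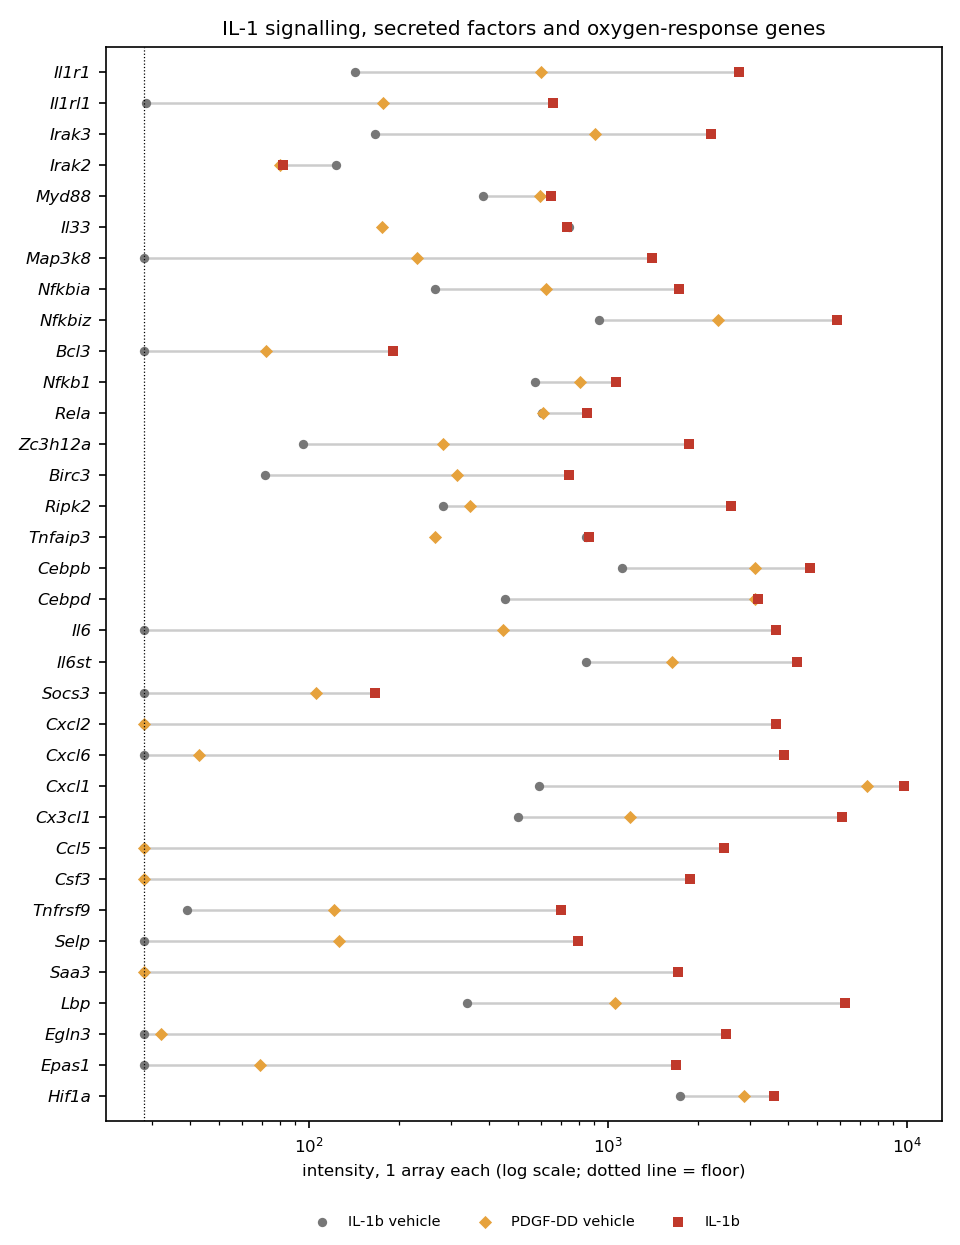
Intensities on 3 arrays, 1 array each, for genes of IL-1 signalling, secreted factors and the oxygen response, on a log axis with the floor of 28.1 as a dotted line; the grey line joins the IL-1b vehicle to IL-1b. Il1r1, Cxcl2, Ccl5 and Egln3 with IL-1b lie clear of both vehicles, whereas Cebpd lies on the PDGF-DD vehicle, and Tnfaip3 and Il33 lie on their own vehicle.

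The genes furthest below the vehicle were of several kinds, and some are described with their lists. Aoc3, a vascular amine oxidase, read 4277, 298 and 1344 and was 14.3-fold lower, and Lmcd1, a LIM protein of muscle, 12.2-fold lower (1085, 88.7 and 681). Wfdc1, a secreted protein of the same domain family as Wfdc18, was 17.9-fold lower (1061, 59.5 and 587), opposite to its relatives. Itgbl1, which resembles an integrin beta chain, was 15.6-fold lower (1064, 68.1 and 228), and Popdc2, a membrane protein of heart and muscle, 12.8-fold lower (1020.1, 79.5 and 172). All 5 were also at least 2-fold below the PDGF-DD vehicle. Crispld2 and Omd, the furthest below, were not: they read 1322, 45.6 and 36.4 and 1180.2, 46.7 and 40.1, so among these arrays the IL-1b vehicle alone was high. The same held for Map2 (589, 52.5 and 64.1) and, among genes under the floor with IL-1b, for Mpped2 (405, under 28.1 and 42.6) and Asb2 (251, under 28.1 and 35.2).

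The contractile apparatus had no measured member at least 2-fold higher. 24 of 37 were at least 2-fold lower, with a median of -1.15, and 17 of 35 were lower than the PDGF-DD vehicle, with a median of -0.98. The kinase that starts contraction, Mylk (myosin light chain kinase), read 4445, 789 and 3472, its substrate Myl9 8133, 1827 and 6092 and Ppp1r14a (CPI-17), the inhibitor that holds the substrate phosphorylated, 854, 156 and 777. These 3 were 5.63-fold lower, 4.45-fold lower and 5.49-fold lower, and a further probe set of Mylk gave a log2 ratio of -3.51. Smtn (smoothelin), a marker of the mature contractile state, read 2476, 603 and 1324, and Csrp2, a LIM protein that bridges SRF and GATA factors, 1929.7, 130.2 and 362. Casq2, the calcium store protein calsequestrin, read 409, 52.4 and 479. Not all parts were alike, since the tropomyosins Tpm1, Tpm2 and Tpm4 had log2 ratios of -0.84, -0.66 and -0.20 and the non-muscle myosin Myh9 -0.84. Myh10, another non-muscle myosin, was 3.86-fold lower. Fewer cells of a contractile type and less RNA per cell cannot be told apart in these bulk samples.

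Regulators of the contractile genes were mixed. Myocd, the coactivator, read 924, 161 and 296, Hey2, a Notch target of vascular smooth muscle, 3255, 619 and 1249.7, and Mef2c 197, 60.3 and 103. Against the PDGF-DD vehicle only Hey2 of these was 2-fold apart (2.02-fold lower). Srf had a log2 ratio of -0.80, Mrtfa (an actin-regulated coactivator of SRF) -0.46 and Tead1 -0.43. Klf4, a repressor, was at least 31.8-fold higher (under 28.1, 892 and 444), Klf2 2.80-fold higher and Klf15 2.22-fold higher, and Klf5, linked to the growing state, was at the floor (28.8, under 28.1 and 32.1). In all 4 of 26 were higher and 5 lower, with a median of -0.29.

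CArG boxes were more frequent in the promoters of lower genes. They were present in 1.37% of promoters of measured genes (1.64% of all promoters), 2.63% of those at least 2-fold lower, 5.08% (6 of 118) at 4-fold and 5.56% (2 of 36) at 8-fold, and in 0.579% (3 of 518) of those at least 2-fold higher and 0 of 172 at 4-fold. Genes at least 2-fold lower than both vehicle arrays held one in 4.58% (7 of 153). For genes higher than both it was 1.17% (3 of 256), near the share of all measured genes. In the contractile list 3 of 30 promoters held one and 0 of 30 a kappaB decamer, and in the striated muscle list 3 of 14 held one. The AP-1, EGR and MYC list, which had more higher than lower members, held one in 3 of 25. CArG boxes were not alone in this, since the AP-1 site was in 3.31% of promoters of measured genes. On the lower side it was in 3.5% at 2-fold, 7.63% (9 of 118) at 4-fold and 2.78% at 8-fold. Acta1 (skeletal alpha-actin, chr19:68784145-68784444 on the minus strand) and Fbxl22 (chr8:75971665-75971964 on the minus strand), a muscle F-box protein, are shown with the CArG box in capitals, which begins 94 and 204 bases before the start.
Acta1: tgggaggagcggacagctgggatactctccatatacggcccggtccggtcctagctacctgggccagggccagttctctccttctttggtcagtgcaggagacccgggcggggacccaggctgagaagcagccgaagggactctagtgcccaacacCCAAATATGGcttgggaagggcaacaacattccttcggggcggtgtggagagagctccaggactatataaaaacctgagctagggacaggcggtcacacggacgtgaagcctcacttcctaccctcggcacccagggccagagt
Fbxl22: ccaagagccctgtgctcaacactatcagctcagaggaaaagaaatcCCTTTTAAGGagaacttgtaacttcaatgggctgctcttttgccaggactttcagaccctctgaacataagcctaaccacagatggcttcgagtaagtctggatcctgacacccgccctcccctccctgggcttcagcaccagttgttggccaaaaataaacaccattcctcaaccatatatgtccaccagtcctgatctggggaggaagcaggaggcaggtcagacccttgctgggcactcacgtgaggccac
Acta1 read 4782, 261 and 3526 and was 18.3-fold lower, and Fbxl22 read 1487, 153 and 1212 and was 9.72-fold lower.

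Of the striated muscle genes these cells expressed, 6 of 18 were at least 2-fold lower and 1 higher, with a median of -0.58. Tnnc1 (cardiac and slow troponin C) read 6597, 321 and 3243, and Mybpc2, a myosin-binding protein, was 3.01-fold lower (139, 46.2 and 146). Tnnt2 (cardiac troponin T) was 5.81-fold lower but equal to the other vehicle (308, 53.1 and 51.1), and Ankrd1 had a log2 ratio of -0.93. The higher one was Myl1, a skeletal myosin light chain, which came up from the floor to 169.8. Against the PDGF-DD vehicle 7 of 17 were lower.

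Among actin and focal adhesion genes, which tie contractile filaments to the membrane and matrix, 11 of 41 were at least 2-fold lower and 1 higher, with a median of -0.43. Lims2 (PINCH2), of the integrin-linked kinase complex, read 2178, 229 and 1058, and Nexn (nexilin), an actin-binding protein, 1532, 301 and 1656. They were 9.51-fold lower and 5.10-fold lower, and the focal adhesion genes Tns1, Tns3 and Palld 3.10-fold lower, 2.35-fold lower and 2.32-fold lower. Arpc2 and Parva, which serve actin in most cells, had log2 ratios of -0.03 and 0.02. Among integrins 6 of 15 were lower and 0 higher (median -0.43): the collagen receptor chain Itga11 read 984, 121 and 990.2, the laminin receptor chain Itga6 228, 43.2 and 238 and the smooth muscle chain Itga8 631, 199 and 829. These 3 were lower than both vehicles, while Itgb1, the beta chain they pair with, was equal (5703, 5966 and 6326), and Itga5, of the fibronectin receptor, had 0.69.

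**Figure D4:**
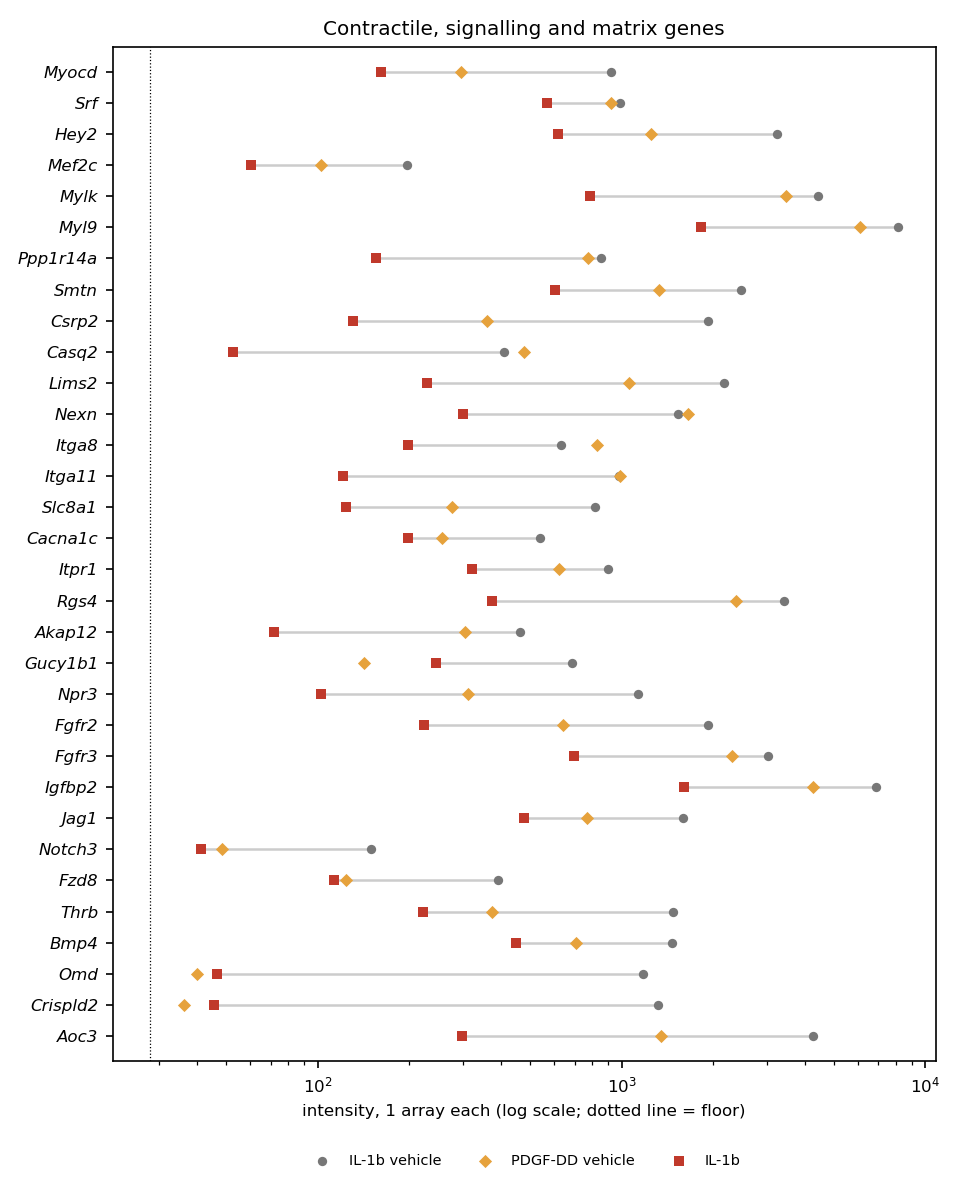
Intensities on 3 arrays, 1 array each, for contractile, signalling and matrix genes, on a log axis with the floor of 28.1 as a dotted line; the grey line joins the IL-1b vehicle to IL-1b. Mylk, Ppp1r14a, Casq2, Nexn and Itga11 on the PDGF-DD vehicle array lie close to the IL-1b vehicle, while Notch3, Fzd8, Omd and Crispld2 lie close to IL-1b.

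Calcium and potassium channels were split evenly, 7 higher and 7 lower of 35 (median 0.09). Cacna1c, the L-type calcium channel that carries the contractile calcium current, read 538, 198 and 256, the inositol trisphosphate receptor Itpr1 899, 323 and 620.1 and the sodium-calcium exchanger Slc8a1 818, 124 and 276. Slc8a1 was 6.6-fold lower than its vehicle and 2.22-fold lower than the other, and 1 of the 7 lower channel genes passed against both. The calcium-activated potassium channel genes Kcnma1 and Kcnmb1, which relax the vessel, were 3.08-fold lower and at least 3.49-fold lower, the KATP subunit Abcc9 4.0-fold lower and the gap junction gene Gja4 4.89-fold lower. Itpr2 and Itpr3 were 2.16-fold higher and 2.28-fold higher, opposite to Itpr1. Neither Itpr2 nor Itpr3 was 2-fold higher than the PDGF-DD vehicle, and Itpr1 was within 2-fold of it. The T-type channel Cacna1g and the channel Kcnn3 appeared at 157 and 155 with both vehicles under the floor.

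Receptors of vasoactive agents were higher more often than lower, 12 against 3 of 27 (median 0.79). The purinergic receptors P2ry2 and P2ry6 were 10.3-fold higher and 4.32-fold higher, with P2ry2 at 43.2, 446 and 114. The adenosine receptor Adora2b came up from the floor to 124, and the calcitonin-like receptor Calcrl, partner of Ramp2, to 104, so ligand Adm, receptor and both chaperones Ramp2 and Ramp3 (2.92-fold higher) were all higher than the IL-1b vehicle. The adrenergic receptors Adra1b and Adra1d were at least 3.79-fold lower and at least 3.26-fold lower, but under the floor in the PDGF-DD vehicle as well, and the lysophosphatidic acid receptor Lpar1, whose ligand Enpp2 makes, was 5.18-fold lower (687, 133 and 43.3).

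Regulators of G proteins and cyclic nucleotides were lower for several well-expressed genes. Rgs4 and Rgs5, which shorten G protein signals, read 3421, 373 and 2388 and 1868, 136 and 375, and Rgs2, of the same family, 139.9, 3335 and 1573 in the other direction. Gem, a small GTPase that limits calcium channels, was 5.64-fold lower (1530.2, 271 and 167). The RGS list held 4 higher and 4 lower of 21 (median 0.25). In the cyclic nucleotide list 6 of 21 were lower and 1 higher (median -0.31). The nitric oxide receptor chains Gucy1a1 and Gucy1b1 were at least 3.30-fold lower and 2.79-fold lower, but Gucy1b1 was above the other vehicle (686, 246 and 142). The anchoring protein Akap12 read 464, 71.9 and 306 and the clearance receptor Npr3 1136, 103 and 312, both lower than either vehicle, and Pde4b, a cAMP phosphodiesterase, was 2.73-fold higher.

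Matrix proteases held 7 of 27 higher and 5 lower (median 0.23), with 6 higher than both vehicles. The aggrecanases Adamts4, Adamts5 and Adamts8 were 4.08-fold higher, 2.44-fold higher and 9.52-fold higher, with Adamts8 at 51.4, 489 and under 28.1. Mmp3 and Mmp13 appeared at 547 and 284 with both vehicles under the floor, and Mmp9 reached 39.95. Adamts1 was 2.77-fold lower (3938, 1422 and 4140.3), and the membrane-type gene Mmp14 had a log2 ratio of 0.30. Among inhibitors and plasminogen genes 6 of 18 were higher and 5 lower (median -0.09). Plat, tissue plasminogen activator, read 289, 5121 and 1037. Timp1 was 3.82-fold higher and Timp3, which binds to the matrix, 3.55-fold lower, while Timp2 had -0.11. Thbd (thrombomodulin) and F3 (tissue factor), which restrain and start clotting, were 4.94-fold lower and 2.49-fold lower. Of the cathepsins and lysosomal genes 2 of 19 were higher and 0 lower (median 0.13), the largest being Ctsc, from the floor to 124.

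Most collagen genes stayed within 2-fold. Col1a1 read 9091, 8460.4 and 7156, Col5a2 had a log2 ratio of -0.38 and the crosslinking enzyme Lox 0.03, and 2 of 30 collagen genes were higher and 3 lower (median -0.28). Over all measured genes the shares were 6.15% higher and 5.42% lower. Among fibrillar collagens Col11a1 was 4.63-fold lower and Col5a3 at least 2.46-fold higher. Neither difference carried over to the PDGF-DD vehicle, where Col11a1 and Col5a3 had log2 ratios of 0.09 and 0.41. The lower genes also included the prolyl hydroxylase P4ha3 (3.45-fold lower). Elastic fibre and proteoglycan genes were 2-fold apart more often, 9 higher and 15 lower of 58 (median -0.03). Elastin (Eln) read 8140.0, 3121 and 2513 (another probe set gave a log2 ratio of -4.42), the fibre-assembly protein Fbln5 5053, 998 and 1831 and the proteoglycan osteoglycin (Ogn) 10191, 1011 and 1253. None of these 3 was 2-fold below the PDGF-DD vehicle. Lumican (Lum, 2067, 6041 and 1022), the hyaluronan-binding Vcan (227, 2169 and 894) and Fbln1 (34.5, 484 and 157) were higher than both vehicles. In the calcification list 5 of 13 were higher and 1 lower (median 0.22), among them the phosphate carrier Slc20a1 (3.54-fold higher) and the calcification inhibitor Mgp (4.48-fold higher, 2167, 9716 and 9518), and osteopontin (Spp1) was equal (9422, 9217 and 11973).

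Growth factor families held 7 higher and 10 lower of 42 (median -0.09). The receptors Fgfr2 and Fgfr3 read 1929, 224 and 643 and 3028, 699 and 2310.4 and were lower than both vehicles, whereas Fgfr1 had a log2 ratio of -0.66. Pleiotrophin (Ptn) and neuregulin 1 (Nrg1) were 5.60-fold lower and 5.12-fold lower, but not below the PDGF-DD vehicle (1005, 179.5 and 47.8 and 256, 50.05 and 45.4). Pdgfra, the PDGF receptor alpha, was 4.48-fold higher (84.0, 377 and 228). In the IGF family Igfbp2, which binds IGF, was 4.30-fold lower (6873, 1599.9 and 4279), and 0 of 14 were higher and 2 lower (median -0.36).

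In the TGF-beta and BMP families 4 were higher and 6 lower of 41 (median 0.02). Tgfb1 was 2.67-fold higher (449, 1201 and 349) and Tgfb3 4.38-fold lower (514, 117 and 409.8), each holding against both vehicles. Bmp4 and Bmp3 were 3.26-fold lower and 8.43-fold lower, opposite to Bmp6. Against the PDGF-DD vehicle, however, Bmp4 and Bmp3 stayed within 2-fold, with log2 ratios of -0.66 and -0.49. WNT and Notch genes held 1 higher and 9 lower of 41 (median -0.19). Wnt4 read 36.0, 861 and 73.9. The WNT receptors Fzd2, Fzd4, Fzd6 and Fzd8 were 2.55-fold lower, 3.80-fold lower, 3.49-fold lower and 3.46-fold lower, and the Notch ligand Jag1 and receptor Notch3, which maintain arterial smooth muscle, 3.34-fold lower and 3.64-fold lower. Of these receptors and Notch genes only Fzd4 was 2-fold lower than the PDGF-DD vehicle as well (221, 58.2 and 125).

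AP-1, EGR and MYC factors differed more often upward than downward. Maff, a small MAF protein, was 10.2-fold higher (44.3, 451 and 122), Fosl1 at least 5.52-fold higher (under 28.1, 155 and 75.9) and Junb 3.22-fold higher (208, 672 and 575), while Fos and Myc had log2 ratios of 0.85 and -0.32 and Jun was 2.11-fold lower (364, 172 and 219.5). Hmga1, a chromatin protein, was 19.1-fold higher (48.7, 929 and 312). The list held 8 of 31 higher and 1 lower (median 0.40). MAP kinase feedback genes held 6 higher and 3 lower of 23 (median 0.76). The phosphatase gene Dusp6, the ETS genes Etv4 and Etv5 and Phlda1 were 6.06-fold higher, at least 7.16-fold higher, at least 6.18-fold higher and at least 15.7-fold higher. Other feedback genes went the other way: Spry1 and Errfi1, inhibitors of growth factor receptors, were 4.12-fold lower and 6.17-fold lower, and Dusp1 2.53-fold lower (2092, 828 and 3242). Of these only Dusp1 was also at least 2-fold lower than the PDGF-DD vehicle.

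Cell division genes did not separate IL-1b from its vehicle. Of 39 measured G2/M genes 0 were higher by 2-fold or more and 3 lower, with a median of -0.23, and of 33 S phase genes 1 was higher and 2 lower, with a median of -0.03. Cdk1 read 269, 326 and 1270.4 and Aurkb 71.3, 91.8 and 308. The PDGF-DD vehicle culture stood apart here, and against it 40 of 41 G2/M genes were lower, with a median of -2.52; the IL-1b arrays were alike in this respect. Inhibitors of the cycle were split. Higher ones were Cdkn1a (p21) at 937, 2534 and 678, Cdkn2b (p15) at 56.6, 186 and 48.8 and Cdkn2a at 141, 523 and 238, and the DNA damage gene Gadd45a was 6.27-fold higher. Ccnd1 (cyclin D1) was 10.5-fold higher (201, 2117 and 1173). Cdkn1b (p27) was 2.23-fold lower, Cdkn2c (p18) and Cdkn2d (p19) had log2 ratios of -0.92 and -0.65, and Gas2, named for growth arrest, 9.41-fold lower (1339, 142 and 94.6). The G1 list held 6 of 25 higher and 5 lower (median -0.14).

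Respiratory chain and ribosome biogenesis genes lay at or below the background shares of 6.15% and 5.42%. None of 37 respiratory chain genes was 2-fold apart (median 0.09), and of 31 ribosome biogenesis genes 1 was higher and 0 lower (median 0.20). The endoplasmic reticulum stress and cell death lists exceeded the background share on the higher side and lay near it on the lower side. In the endoplasmic reticulum stress list 5 of 34 were higher and 2 lower, with a median of 0.64, and the chaperone genes Hyou1 and Sdf2l1 were 2.26-fold higher and 4.39-fold higher, both also higher than the other vehicle. Cell death genes held 3 higher and 1 lower of 23 (median 0.35), with Bid, which links death receptors to mitochondria, 5.06-fold higher (204, 1032 and 479.6), and Bcl2l1 and Mcl1, which protect cells, at log2 ratios of 0.18 and 0.27.

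**Figure D5:**
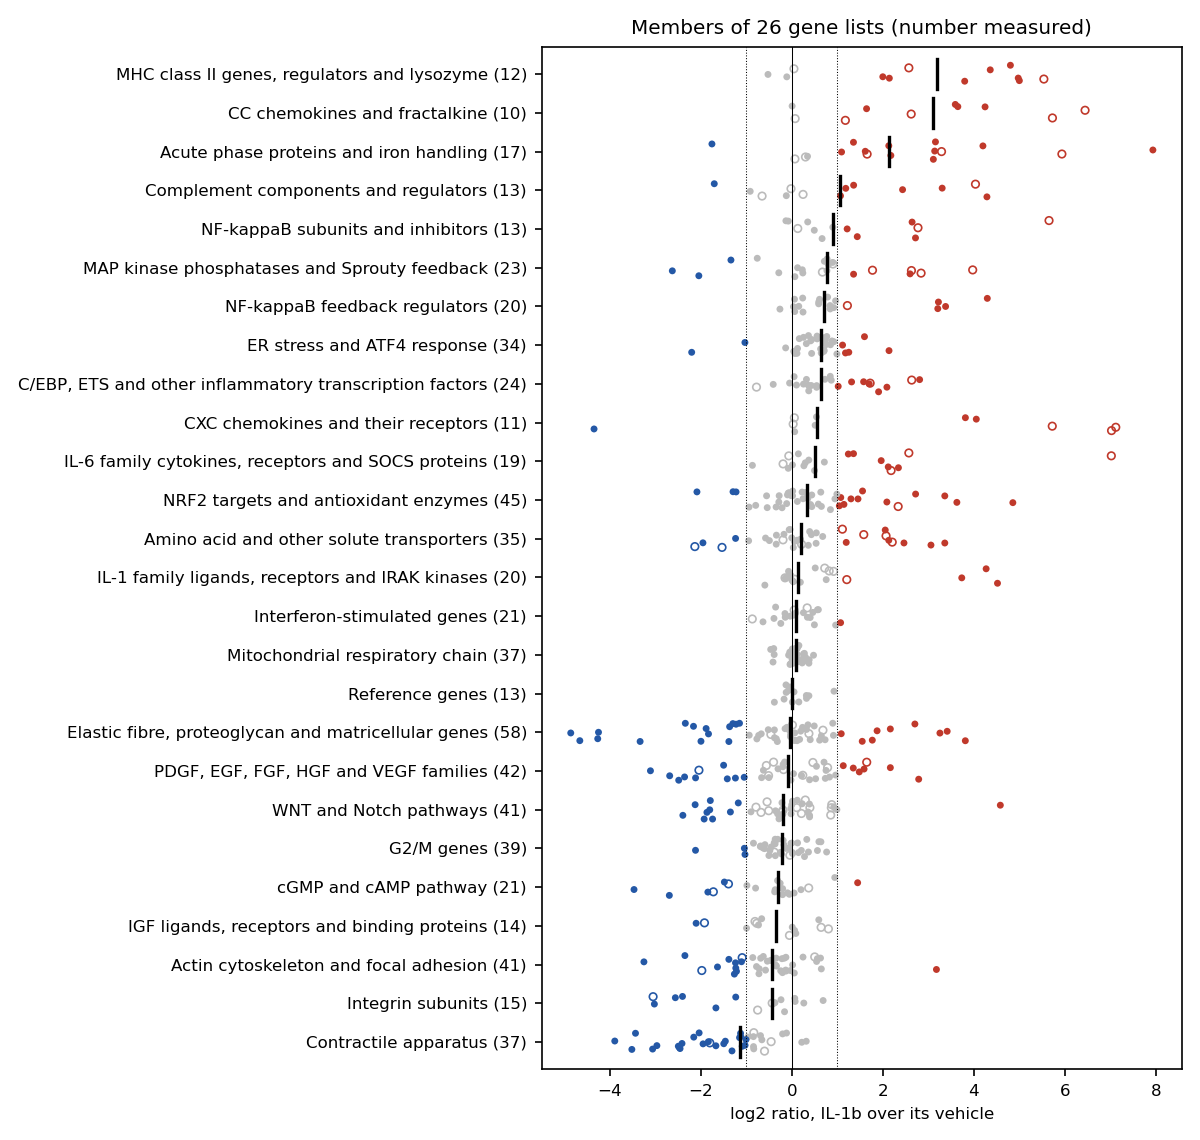
Each point is the log2 ratio of IL-1b over its vehicle for 1 measured member of a gene list, red or blue where at least 2-fold higher or lower and open where 1 array was under the floor; the bar is the median and the number in parentheses the members measured. The class II and CC chemokine lists lie furthest to the right with medians of 3.19 and 3.11 and the contractile list furthest to the left with -1.15, while the respiratory chain and the reference genes lie within 2-fold throughout. Members under the floor on both arrays are left out, 1 of 13 on the array for class II and 8 of 18 for CC chemokines.

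Among markers of other cell types the fibroblast list was shifted. Fibroblast markers, which smooth muscle cells in culture also express in part, held 5 higher and 1 lower of 11 (median 0.82), and 4 were higher than both vehicles. Dermatopontin (Dpt), a matrix protein, led them at under 28.1, 1288 and 67.3, and its other probe set gave a log2 ratio of 4.80. The others higher than both were Lum, described above, the ferritin receptor Scara5 (2.56-fold higher) and the dipeptidase Dpep1 (2.17-fold higher). Decorin (Dcn) was dim at 62.7, 80.2 and under 28.1, and Pi16, a marker of adventitial fibroblasts, read 56.6, 59.1 and 35.5. Of 3 measured endothelial markers 0 were higher and 1 lower (median -0.77), and of 3 epithelial, neural and adipocyte markers 0 and 0 (median 0.05). The part of a change in cell types in the results was not tested beyond these values.

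Gene values rested on 1 probe set each, and other probe sets of the same gene allow a check within the arrays. Of the genes at least 2-fold apart, 348 had a further measured probe set. In 181 all further probe sets were at least 2-fold apart in the same direction, and in 25 at least 1 had the other sign. Probe sets without a single gene symbol were also 2-fold apart, 234 higher and 382 lower of 5379 measured, so the named genes do not hold all of the difference. Among the genes named in the text, 33 of 86 that were at least 2-fold apart and had a further measured probe set had one within 2-fold or of the other sign: Cacna1c, Cdkn1b, Cebpa, Cebpd, Clu, Col11a1, Csf1, Ctsc, Dpep1, Dusp1, Dusp6, Etv5, Fzd4, Gch1, Gucy1a1, Ifngr2, Itga6, Itga8, Itpr2, Jun, Kitlg, Klf15, Klf2, Map2, Masp1, Nrg1, Ntn1, RT1-Ba, Selp, Slc24a3, Thrb, Tnfaip2 and Vcan.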

How the data were processed

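Per the submitters' processing notes the values were made with MAS5. What the authors deposited is 1 linear intensity per probe set, on 1 common median (53.3 on all 4 arrays). No counts or detection calls were used, so presence was judged from intensity. Each array was rescaled to a common mean after trimming 2% at either end, and values below 28.1, a floor set at the 40th percentile of all arrays together, were raised to it before ratios were taken. Of 31099 probe sets, 20832 had 1 gene symbol in the platform annotation of 2016, 436 had several and 9831 none; 20764 matched RefSeq. Each gene was read from its brightest probe set by mean log2 intensity. Genes were compared by a fixed size of 2-fold, with no test, since each group was 1 array.

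Named genes are the 20 with the highest and the 20 with the lowest log2 ratio of those that both arrays measured, the 12 highest and 12 lowest among those under the floor on 1 array (not all are described), and members of 58 lists of 1855 symbols, 1667 of them on the array. Some genes stand in several lists. The members, lists and motifs were chosen with earlier results of these data known. The steps were tested on simulated data. Alternatives changed the scaling, the floor, the fold, the treatment of dim values and the choice of probe set. Python 3.11.15, pandas 2.3.3, numpy 2.4.6 and matplotlib 3.10.9 were used.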

Additional observations from a re-analysis of the deposited data

How the results depend on the processing

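The counts of genes at least 2-fold higher and lower (657 and 579) depended on the fold that counts and on whether genes or probe sets are counted. At 3-fold they were 323 and 253, at 1.5-fold 1411 and 1262, and over every probe set 1098 and 1197. Under the other alternatives they stayed within 1.5 times: 671 and 556 with the values as deposited, 666 and 575 after quantile normalization, 873 and 723 with the floor at the 30th percentile, 541 and 475 at the 50th, 570 and 473 with a pseudocount in place of the floor, and 637 and 547 with the median of a gene's probe sets. Of the 1236 genes, between 968 (pseudocount) and 1233 (lower floor) kept their call and direction under these 6, and 248 of 274 called genes named in the text did so under all of them. RT1-Ba reversed, to a log2 ratio of -0.17, with the median of its probe sets. Among 116 list shares, 101 were moved by none of these 6. A share counted as moved if it fell outside the exact binomial confidence interval of the main share. That interval is wide for short lists, whose shares could hardly move, so this count says little about them. The median log2 ratio of all genes lay between 0.02 and 0.05. The floor limits dim genes, whose folds are bounds. No paired analysis was possible because each group is 1 array.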

Other observations

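Genes outside the lists also stood far from the vehicle; the following were chosen after their values were seen. Chi3l1, a secreted chitinase-like protein of inflamed tissue, read under 28.1, 922 and 97.1 on the IL-1b vehicle, IL-1b and PDGF-DD vehicle arrays, and Gpnmb, a transmembrane glycoprotein known from macrophages and bone, 437, 5080.4 and 578. Purine and pyrimidine salvage was represented by Upp1 (uridine phosphorylase, at least 31.3-fold higher) and Ampd3 (AMP deaminase, at least 32.7-fold higher). Cd180, a relative of Toll-like receptor 4 named for B cells, read 127.5, 2117 and 386, and Ebi3, a subunit of IL-27 and IL-35, appeared at 162 with both vehicles under the floor. The guidance cue netrin-1 (Ntn1) was 13.1-fold higher (137, 1798 and 373). C4bpa, a soluble complement inhibitor, was at least 25.6-fold higher (under 28.1, 720.0 and 68.3). Each of these 8 was also at least 4-fold higher than the PDGF-DD vehicle. Clusterin (Clu) differed from them, being 6.80-fold higher than its vehicle but 3.56-fold lower than the other (210.1, 1428 and 5078), and its other probe set gave a log2 ratio of 0.01.

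On the lower side the muscle Z-disc genes Ldb3 and Sorbs2 were 6.75-fold lower and 5.59-fold lower, and Tspan2, a tetraspanin of contractile smooth muscle, 4.95-fold lower (401, 80.9 and 685). Selenop, the selenium carrier, was 5.08-fold lower, though within 2-fold of the PDGF-DD vehicle (4138, 815 and 1345). Cavin2, a caveolar coat protein, was 5.98-fold lower than its vehicle and 3.72-fold higher than the other (2133, 357 and 96.0), so its direction differed between the vehicles. Slc24a3, a sodium, potassium and calcium exchanger, was 10.7-fold lower (681, 63.5 and 99.5), with -0.41 on the log2 scale from its other probe set.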
